A study of Mus musculus with 25 samples.

Results

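Gene-to-distal-peak contacts were the pairs of 10 kb genomic bins, listed as high-confidence H3K27ac HiChIP interactions in TKO cells, in which 1 bin carried a gene symbol and the other carried no symbol but an H3K27ac peak. HiChIP ligates DNA fragments that touch inside the nucleus, enriches the ligated pieces with an antibody to a chromatin protein or mark, and counts them per pair of bins. The rule took 22996 of 93248 listed interactions at 0 h and 20270 of 84256 at 24 h. Of the 25647 contacts in either list (109776 interactions in all), 17619 were in both. The other listed pairs joined 2 gene bins (7130 at 0 h), held no gene (52047) or joined a gene to a bin without an H3K27ac peak (11075).

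The TKO cells were V6.5 mouse embryonic stem cells kept in 2i, taken without doxycycline (0 h) or after 24 h of doxycycline, with 3 H3K27ac libraries at each time. The labels do not spell out TKO, and nothing about the deleted or induced genes was assumed. The same mark was profiled in 2 libraries of MEFs and 2 of V6.5 ES cells in 2i. The MEFs, embryonic fibroblasts at passage 3, came from E13.5 embryos with the rtTA3 transactivator, the doxycycline-inducible OKSM reprogramming cassette and 1 copy of an Oct4-GFP reporter. KLF4 HiChIP covered those fibroblasts after 3 days of doxycycline and ascorbic acid (3 libraries, bulk cells) and after 6 days (4 libraries, SSEA1-sorted cells), and ES cells (4 libraries). Hi-C, the same counting without an antibody, covered MEFs and ES cells with 2 libraries each. The H3K27ac libraries of TKO cells held 68.3 M to 110 M contacts, as the ratio of counts to CPM gives, of which 2122808 to 3919383 lay on listed interactions, and a listed interaction had a median of 22 to 35 counts in each. The labels do not say that replicates were separate cultures, so p-values measure the spread between these libraries.

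H3K27ac, acetylation of lysine 27 on histone H3, marks active promoters and active enhancers. An enhancer can act on a promoter far along the chromosome, passing other genes on the way, and cohesin-driven loops within topological domains bring such pairs close together. Naive pluripotent cells keep dense enhancer clusters near genes such as Nanog, Klf2 and Tbx3, where OCT4, SOX2, ESRRB and KLF factors bind. In bulk cells, fewer cells holding a contact and a less frequent contact in every cell cannot be told apart.

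The gene ends of the contacts can be read as sequence. The bases just before a RefSeq start (GRCm38.p6) are shown for 4 naive pluripotency genes whose start lay in the gene bin. Nanog and Tfcp2l1 carried KLF motifs and their summed contacts fell at 24 h. Spic had the largest fall of that list and no motif, and the sum of Pou5f1 did not pass the test. Capitals mark matches to the KLF motif GGGNGTGG on either strand. Nanog and Pou5f1 had more than 1 start in the bin, and the stretch with more KLF matches is shown. The other Nanog stretch held 1 match, and the other Pou5f1 stretch held 0. The Nanog stretch is chr6:122707315-122707564 on the plus strand, Tfcp2l1 is chr1:118627695-118627944 on the plus strand, Spic is chr10:88683024-88683273 on the minus strand and Pou5f1 is chr17:35505782-35506031 on the plus strand, each 250 bases written 5′ to 3′ in the gene's direction.
Nanog: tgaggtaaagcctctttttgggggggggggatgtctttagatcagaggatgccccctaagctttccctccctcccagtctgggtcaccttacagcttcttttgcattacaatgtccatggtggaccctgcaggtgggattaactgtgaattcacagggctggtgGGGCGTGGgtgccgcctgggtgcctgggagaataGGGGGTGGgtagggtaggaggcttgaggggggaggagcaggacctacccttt
Tfcp2l1: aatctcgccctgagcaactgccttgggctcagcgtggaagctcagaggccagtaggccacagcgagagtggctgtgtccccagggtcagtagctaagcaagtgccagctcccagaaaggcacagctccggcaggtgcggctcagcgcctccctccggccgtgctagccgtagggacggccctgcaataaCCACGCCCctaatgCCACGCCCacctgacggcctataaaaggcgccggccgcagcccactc
Spic: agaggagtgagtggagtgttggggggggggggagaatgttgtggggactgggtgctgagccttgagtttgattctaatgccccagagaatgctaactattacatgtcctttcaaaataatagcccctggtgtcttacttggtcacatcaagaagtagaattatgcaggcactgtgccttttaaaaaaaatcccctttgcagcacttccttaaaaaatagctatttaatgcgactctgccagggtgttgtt
Pou5f1: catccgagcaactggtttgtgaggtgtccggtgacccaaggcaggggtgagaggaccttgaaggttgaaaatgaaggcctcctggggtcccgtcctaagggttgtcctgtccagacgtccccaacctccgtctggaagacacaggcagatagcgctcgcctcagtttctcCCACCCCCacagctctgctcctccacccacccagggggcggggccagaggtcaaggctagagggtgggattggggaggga
The KLF motif matched 15.9% of 32817 RefSeq promoters of that length, the ESRRB motif TCAAGGTCA 0.387% and the octamer ATGCAAAT 1.60%, both strands searched. Of the naive pluripotency genes described below, 18 had a promoter of this kind inside the gene bin, and 5 of these held a KLF match. That was 2 of the 5 genes whose contacts fell and 3 of the 13 others (Pou5f1, Zfp42 and Tdgf1). The octamer was found in 1 (Zfp42) and the ESRRB motif in 0. A match is a run of letters, not evidence of binding.

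Most of these contacts were short. The median distance between bins was 30 kb at 0 h and 20 kb at 24 h, the 90th percentile was 100 kb and 80 kb, and the longest contacts spanned 1080 kb and 1020 kb. Neighbouring bins made up 26.4% of the contacts at 0 h and 29.0% at 24 h. At 0 h, 29.6% (95% Wilson interval 29.0 to 30.2) spanned 50 kb or more, against 24.7% (24.2 to 25.3) at 24 h. Contacts between 2 gene bins reached farther, with 37.2% and 30.3% at 50 kb or more, and pairs with no gene less far, with 23.0% and 20%. Thus all 3 classes were shorter in the 24 h list. Intervals of this kind cover counting error only, and contacts that share a bin are not independent.

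The shift was seen between the full lists and was small among the contacts in both. Over each time's own list, contacts of 50 kb or more took 18.3%, 18.3% and 18.4% of the counts on gene-to-distal-peak contacts in the 0 h libraries, and 15.6%, 15.5% and 15.4% in the 24 h libraries, but the 2 lists hold different contacts. Over the 17619 contacts in both lists, an alternative added after seeing the data, they took 14.3%, 14.3% and 14.4% at 0 h and 14.2%, 14.1% and 14% at 24 h. On that common set the shares thus differed by little. A long contact that weakened enough to leave the 24 h list is not in this set. The comparison therefore cannot tell a change in listing from a weakening of long contacts.

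Long contacts also passed over other genes. A RefSeq protein-coding start lay in a bin between the 2 anchors of 27.2% of the 0 h contacts. The share rose from 15.0% at 20 kb to 29.4% at 30 to 40 kb, 50.4% at 50 to 90 kb, 70.8% at 100 to 190 kb and 75.3% at 200 kb or more. These are lower bounds, since 75.3% of the 10187 symbols at the gene bins had an entry in the table of starts. The gene bins were largely promoter bins, as 74.0% of 8400 held a RefSeq start of a symbol named there. Of the 13739 distal bins, 4.77% held a protein-coding start and 9.14% held a RefSeq start of any kind. These distal shares are lower bounds too, since the table of starts is incomplete. Nearly all contacts stayed within a topological domain. Of the 0 h contacts with both bins in called domains, 97.3% lay in 1 ES cell domain and 94.9% in 1 MEF domain. Among those spanning 100 kb or more the shares were 93.0% and 89.6%. In ES cell domains gene-gene contacts had 96.5% and pairs with no gene 98.5%, so this was not particular to the class.

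Of the 0 h contacts, 76.6% (76.1 to 77.2) were listed again at 24 h, and 86.9% of the 24 h contacts had been listed at 0 h. Reappearance fell with distance, from 89.2% of neighbouring-bin contacts to 62.8% at 50 to 90 kb, 52.6% at 100 to 190 kb and 39.9% (207 of 519) at 200 kb or more. In the other direction it fell less, from 91.9% to 73.9%. The share listed again was 73.5% for gene-gene contacts, 71.8% for pairs with no gene and 67.9% for contacts to a bin without a peak. Every listed TKO contact had normalised counts (CPM, scaled by the authors to a fixed total within each chromosome) above 3 in every library, so a contact missing from a list need not be absent from the cells.

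**Figure D1:**
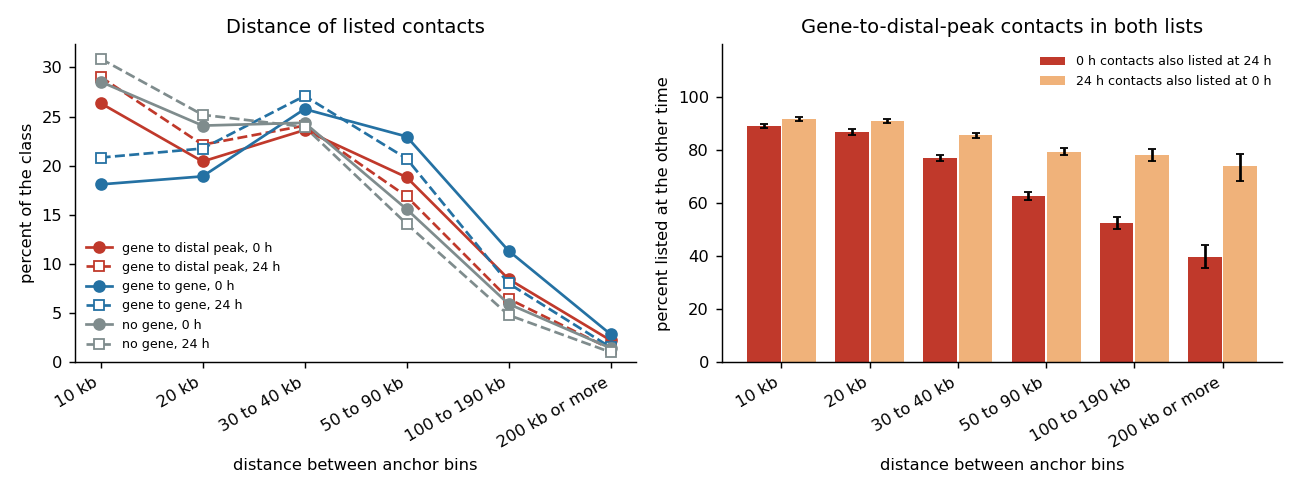
Left, percent of listed contacts (vertical axis) in 6 classes of distance between the anchor bins, for gene-to-distal-peak contacts, gene-gene contacts and pairs with no gene at 0 h (solid) and 24 h (dashed). Right, percent of 0 h gene-to-distal-peak contacts also listed at 24 h and the reverse, with 95% Wilson intervals, falling from 89.2% to 39.9% and from 91.9% to 73.9% with distance.

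The peak at the distal bin went with reappearance. H3K27ac peaks were called at both times at the distal bin of 87.9% of the 0 h contacts, at 0 h alone for 7.38% and at 24 h alone for 4.71%. Of contacts to a peak present at both times, 78.3% were listed again, against 53.9% (51.5 to 56.2) of contacts to a peak called at 0 h alone. Contacts seen in other lists reappeared most: 94.1% of those in the ES KLF4 list against 70.9% of the others, and 87.4% of those in the ES H3K27ac list against 47.1%. Contacts in the ES KLF4 list were also stronger, with a median CPM of 10.9 against 6.74 among contacts in both TKO lists, and the part of strength in their reappearance was not tested.

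Few genes had many distal contacts. At 0 h, 7761 gene bins (9448 symbols) had a mean of 2.96 and a median of 2 contacts each, and 35.7% had 1. At 24 h, 7406 gene bins had a mean of 2.74, and 38.8% had 1. Bins with 5 or more contacts numbered 1515 and 1210, and bins with 10 or more 205 and 146. Seen from the other side, 12831 distal bins at 0 h contacted a mean of 1.79 gene bins, 56.1% contacted 1, and 28 contacted 10 or more.

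**Figure D2:**
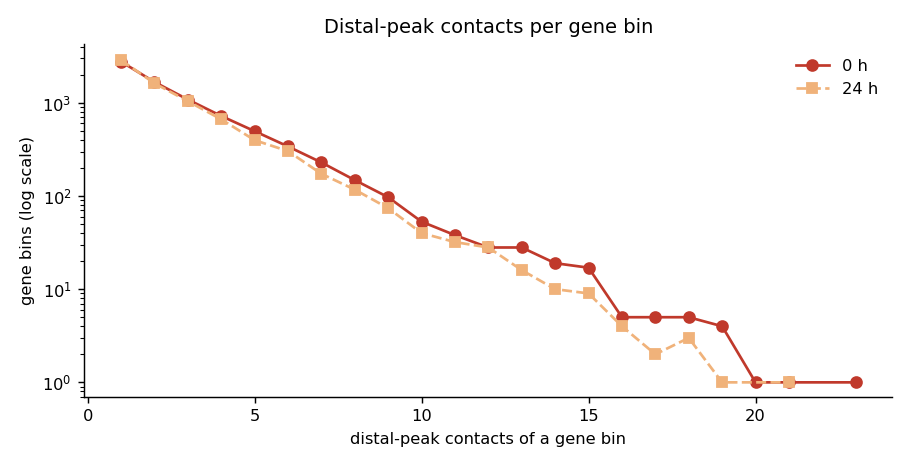
Number of gene bins (vertical axis, log scale) with each number of distal-peak contacts (horizontal axis) at 0 h (solid line, circles) and 24 h (dashed line, squares). Bins with 5 or more contacts numbered 1515 at 0 h and 1210 at 24 h, and the highest counts were 23 and 21.

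The largest hub was Hes1, the helix-loop-helix repressor known as a Notch target, with 23 contacts at 0 h and 19 at 24 h, reaching 410 kb. Its summed CPM was 194, 210 and 216 at 0 h and 145, 163 and 151 at 24 h. All its 24 h values were below all its 0 h values, but the same held for Sulf2, Klf9 and Hs6st1, hubs that did not pass the test. The log2 change of Hes1 was -0.31 ± 0.07 (approximate SE, edgeR quasi-likelihood test, Benjamini-Hochberg adjusted p = 6.32e-04, and 0.0584 with DESeq2). Hes1 had 2 contacts that fell on their own, to bins 20 kb and 60 kb away at higher coordinates, with log2 changes of -0.70 and -0.87 (adjusted p = 0.00151 and 0.0198).

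Smad7, an inhibitor of TGF-beta and BMP signalling, followed with 21 and 14 contacts and a log2 change of -0.32 (edgeR adjusted p = 9.17e-04, DESeq2 0.135). Summed over contacts of 30 kb or more, the change of Smad7 was -0.21 (edgeR adjusted p = 0.214). Sulf2, which trims sulfate from heparan sulfate, had 20 and 15 contacts and a change of -0.15 that did not pass (adjusted p = 0.173). Hs6st1, which adds sulfate to heparan sulfate, and its chromosome 1 neighbour 4930535G08Rik both had 19 at 0 h. The neighbour fell by 0.30 on the log2 scale (adjusted p = 3.94e-04) and Hs6st1 had a change of -0.02 (adjusted p = 0.911). Gm31763, with 19 and 21 contacts, and the Klf9 bin, with 18 at both times, had changes of 0.04 and -0.13 and did not pass the test. Thus Hes1, Smad7 and 4930535G08Rik fell in the edgeR fit, Hes1 and Smad7 did not pass with DESeq2, and the other hubs named here did not pass.

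Hub size leaned on the authors' scaling. A CPM of 3 took 26 counts on chromosome 1 but 9 on the X chromosome in the first 0 h library, so chromosomes with fewer contacts enter the list at lower counts. With 1 count threshold for all chromosomes, 15459 contacts remained at 0 h, Sulf2 kept 20 and ranked first, Hes1 had 16, Smad7 10, and Smndc1, a splicing factor gene on chromosome 19 with 19 contacts as listed, had 5. The 5 distal bins with the most gene partners all lay on chromosome 19 between 8710001 and 9000000, near Slc3a2, Nxf1, Eef1g and Ahnak, and contacted 14 to 17 gene bins at 0 h, but 5 to 8 with 1 threshold. Chromosome 19 held 6.13% of the 0 h contacts as listed and 3.34% with 1 threshold.

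Some genes lost listed contacts and others gained them. Rnf138, a ubiquitin ligase gene, went from 18 to 10 contacts and its sum fell by 0.43 on the log2 scale (edgeR adjusted p = 2.44e-06). Msh6, a DNA mismatch repair gene, went from 14 to 6 with a change of -0.41 (adjusted p = 3.47e-04, DESeq2 0.179). The change was 0.020 when only contacts of 30 kb or more were summed. Igf2bp3 went from 13 to 6, but its sum over contacts in both lists changed by -0.05 (adjusted p = 0.799). Among the gains, the Ccnd3 and Taf8 bin went from 9 to 16 with a change of 0.14 (adjusted p = 0.317), and with 1 count threshold from 8 to 9. The sum of 0610012D04Rik rose by 0.44 (adjusted p = 1.21e-04, DESeq2 0.0804) as its contacts went from 4 to 10. A change in number was thus not always a change in the sum.

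Strength was compared for the 17619 contacts in both lists. Scaled to CPM by each library's total contacts, gene-to-distal-peak contacts summed to 8381, 8879 and 8834 at 0 h and 7515, 7953 and 7682 at 24 h, without overlap. Their share of all counts on interactions in both lists was 28.5%, 28.7% and 28.9% at 0 h and 28.0%, 28.3% and 28.0% at 24 h. The fit used TMM scaling over all 67728 interactions in both lists, which takes out a shift common to most interactions: without it the median log2 change of all interactions was -0.10 in place of 0.01. The changes below are relative to that scale.

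At an adjusted p under 0.05, 453 contacts (2.57%) fell and 86 (0.488%) rose, and 2642 had an unadjusted p under 0.05. The share called among all interactions was 2.62%, with 2.04% lower and 0.576% higher, so the contacts were near the background in both directions. In the highest quartile of the contacts' CPM, 6.81% fell, against 7.20% of pairs with no gene and 4.47% of gene-gene contacts of that strength. In the next quartile the shares falling were 2.23%, 2.23% and 1.43%. Gene-gene contacts had 1.32% lower, pairs with no gene 2.27% and contacts to a bin without a peak 0.213%. Called falls had a median log2 change of -0.65 and lay in 366 gene bins, and called rises had a median of 0.68 in 81. The 3 CPM values at 0 h all lay above those at 24 h for 20.3% of the contacts, against 17.2% of all interactions, and the reverse held for 3.25%, against 3.9%. Without TMM, 887 fell and 35 rose, so that 96.2% of calls were falls in place of 84.0%. DESeq2 called 52 falls and 0 rises (525 at an unadjusted p under 0.05).

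For the test, replicates 2 and 3 of 0 h were added and counted as 1 sample, as were replicates 1 and 3 of 24 h. Leaving out replicate 1 of 0 h or 2 of 24 h thus left 1 sample at that time. A call lost there cannot be read as dependence on that library. Leaving out 1 of the other libraries gave 261 to 327 falls and 47 to 68 rises. Falls numbered 298 without replicate 3 of 0 h, and 291 and 261 without replicates 1 and 3 of 24 h. Rises numbered 54 and 47 without replicates 2 and 3 of 0 h.

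The deepest fall was at Gm12688, a predicted gene at chr4:99650001-99660000, with its peak bin 20 kb away, starting at 99630001. Its CPM was 15.6, 19.4 and 18.6 at 0 h and 5.80, 6.33 and 5.89 at 24 h, a log2 change of -1.45 ± 0.17 (edgeR adjusted p = 1.23e-14). The contact to a bin 20 kb to the other side fell by 1.12 (adjusted p = 1.96e-09). Both contacts were in the ES H3K27ac and ES KLF4 lists and in neither MEF list.

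A230028O05Rik on chromosome 16 fell similarly. Its contact to the peak bin 20 kb away had CPM values of 34.2, 30.8 and 40.1 at 0 h and 11.8, 15.1 and 13.2 at 24 h, a log2 change of -1.26 ± 0.15 (edgeR adjusted p = 7.13e-14). The contact was as strong in ES cells, with a mean CPM of 33.2, as in TKO cells at 0 h. Its 30 kb contact changed by -1.07, but by -0.78 and no longer past the test without replicate 3 of 0 h (adjusted p = 0.16).

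Pramel6, a PRAME-family gene of early embryos, fell at its neighbouring bin on chromosome 2 from 29.2, 35.1 and 36.7 CPM to 12.7, 14.4 and 15.3, a change of -1.10 ± 0.12 (edgeR adjusted p = 9.22e-16). Mir124a-1hg, the host transcript of a miR-124 gene, fell by 1.10 at 10 kb (adjusted p = 7.95e-08). Longer falls were those of Skida1 at 70 kb, from 11.7, 11 and 11 to 4.28, 5.24 and 4.43 CPM (-1.14, adjusted p = 1.36e-07), and Gcnt2, a glycosyltransferase gene, at 120 kb, from 9.99, 11.5 and 10.9 to 4.43, 4.69 and 5.07 (-1.08, adjusted p = 3.27e-04). Foxo4, a forkhead factor downstream of insulin signalling, had a change of -1.22 at 80 kb on 8 to 26 counts per library (adjusted p = 0.00786). Without replicate 2 of 24 h, which left 1 sample at that time, the change was -1.07. Each of these named falls had a distal peak at both times.

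The 10 largest rises were smaller than the 10 largest falls, though over all calls the medians were alike in size. Igdcc4, an immunoglobulin-family receptor gene on chromosome 9, rose at a neighbouring bin whose peak was called at 24 h alone, from 8.33, 10.5 and 7.94 CPM to 11.7, 14.9 and 19.5 (0.92 ± 0.16, edgeR adjusted p = 1.24e-05). Iba57, needed for mitochondrial iron-sulfur proteins, rose at 10 kb from 5.24, 9.67 and 6.55 CPM to 10.5, 14.2 and 11.1 (0.90, adjusted p = 8.00e-05). The bin of Pofut2, a protein O-fucosyltransferase gene, rose at 60 kb from 5.08, 4.12 and 5.75 to 8.55, 9.41 and 9.50 (0.97, adjusted p = 7.81e-04). These 3 kept their calls in each leave-out that kept 2 samples at both times. In such leave-outs the other 7 of the 10 largest rises lost the call at least once (edgeR adjusted p in parentheses). Gm27198 (0.0631) and Calml4 (0.0541) lost it without replicate 3 of 24 h, and A930006L05Rik (0.0566) without replicate 1 of 24 h. Chaf1a (0.0665) and the Myo1g and Snhg15 bin (0.0653) lost it without replicate 3 of 0 h, the latter also without replicate 1 of 24 h (0.0858). The Vpreb1 and Top3b bin lost it without replicate 2 or 3 of 0 h or 1 or 3 of 24 h (0.0595 to 0.209). Cul4b lost it without replicate 2 of 0 h (0.0598). Its change was 0.78 without replicate 1 of 0 h and 0.56 without replicate 2 of 24 h.

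**Figure D3:**
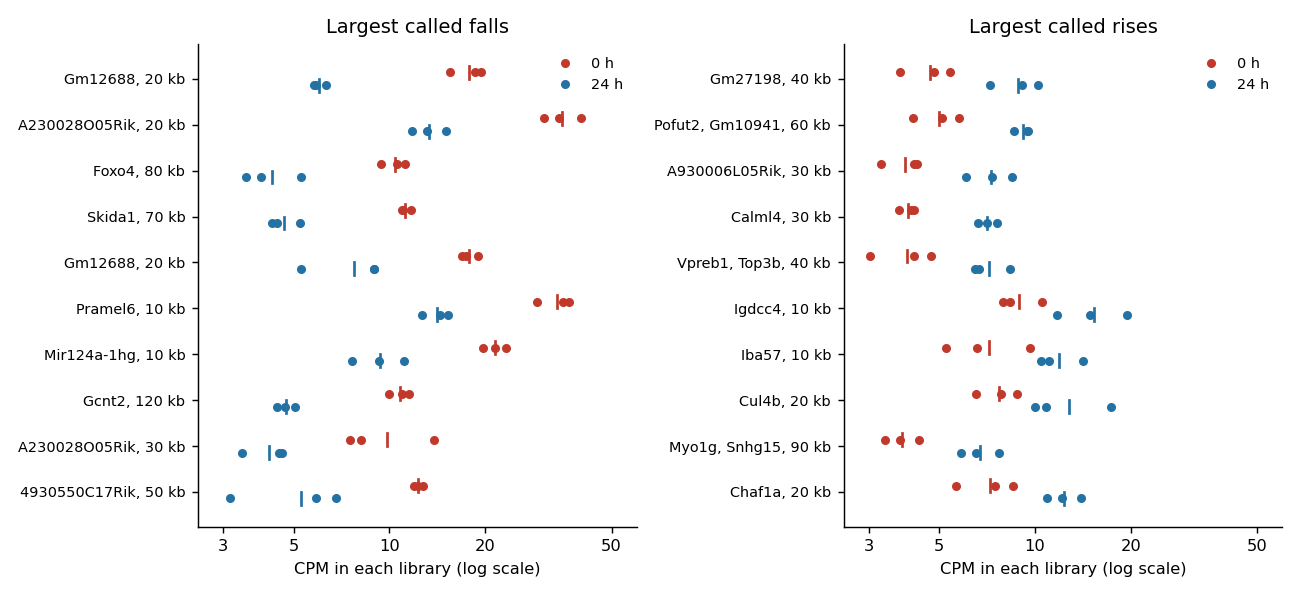
CPM in each library (horizontal axis, log scale) of the 10 contacts with the largest called falls (left) and rises (right) among those whose libraries do not overlap, labelled by gene and distance. Points are the 3 libraries at 0 h (red) and 24 h (blue), and ticks are their means. Falls such as Gm12688 go from 15.6 to 19.4 CPM at 0 h down to 5.80 to 6.33 at 24 h.

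The strongest contacts spanning 50 kb or more at 0 h were on chromosome 19 in 5 of 6 cases, where a CPM unit stands for fewer counts than on chromosome 1. Klf9 contacted a bin 50 kb away at 59.3, 67.9 and 67.2 CPM at 0 h and 50.1, 48.1 and 49.0 at 24 h, a log2 change of -0.30 that did not pass (edgeR adjusted p = 0.187). Its contact 60 kb away had a change of -0.39 (adjusted p = 0.0689, and 0.0252 without TMM). That contact was 3.40 higher on the log2 scale in ES cells than in MEFs (adjusted p = 2.26e-17). The 50 kb contact of Neat1, the paraspeckle RNA gene, changed by -0.02 (adjusted p = 0.969) and appeared in all 7 other lists. The Zfp91 and Lpxn bin fell at 60 kb from 34.4, 41.1 and 45.1 to 17.1, 26.4 and 17.6 CPM (-0.82, adjusted p = 2.80e-05). C230035I16Rik on chromosome 13 fell at 80 kb by 0.43 (adjusted p = 0.0172, but 0.213 without replicate 3 of 0 h and 0.117 without replicate 3 of 24 h).

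Falls were more frequent among contacts shared with the KLF4 list of ES cells. Of 5306 such contacts, 249 (4.69%) fell and 24 rose, with a median log2 change of -0.06, against 204 of 12313 (1.66%) falling and a median of -0.01 among the rest. Calls were more frequent among stronger contacts. In the highest quartile of CPM the shares falling were 8.15% and 4.92%, and in the next quartile 1.80% and 2.43%. The ES KLF4 contacts that were absent from the MEF H3K27ac list had 5.59% falls (median -0.09), and contacts in the MEF list alone of these 2 had 1.03% falls and 0.993% rises. No test of these shares was made, since contacts share bins and libraries.

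Few changed contacts had a distal peak called at 1 time alone. Contacts to a peak called at 0 h alone had 9 falls and 0 rises of 914 (median log2 change -0.04). Contacts to a peak called at 24 h alone had 1 fall and 5 rises of 875 (median 0.08). The 15830 contacts to a peak called at both times held 443 falls and 81 rises. Most of the 453 falls were thus at distal bins with a peak before and after, as were most of the 17619 contacts tested. The shares falling were 2.80% with a peak at both times, 0.985% at 0 h alone and 0.114% at 24 h alone. Only contacts listed at both times were tested. Of the 1697 contacts at 0 h to a peak called at 0 h alone, 914 were listed at 24 h, and the rest could not count as falls. By distance, falls made up 3.88% at 10 kb, 2.10% at 50 to 90 kb and 0.966% at 200 kb or more.

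Summed per gene bin over the contacts in both lists, 431 of 6620 bins fell (6.51%) and 142 rose (2.15%), 8.66% in all, and 1384 had an unadjusted p under 0.05. Without TMM, 782 fell and 37 rose (95.5% of calls falls, in place of 75.2%), and DESeq2 called 59 and 4. Over the leave-outs that kept 2 samples at both times, 290 to 343 fell and 96 to 117 rose. Falls were more frequent in bins with more contacts at 0 h: 1.35% of tested bins with 1 contact fell, 5.19% with 2 to 4, 13.9% with 5 to 9 and 26.8% with 10 or more. Rises made up 1.62%, 2.09%, 3.28% and 0.488% in the same order, and the median log2 change went from 0.04 to -0.12. This grouping used the 0 h list, which is 1 side of the comparison. The sums with the largest falls were those of Mir124a-1hg (-1.10), Trib1 (-1.04), the AY512931 and Mtnr1a bin (-1.04), Gm12688 (-1.02), Pramel6 (-1.0) and A230028O05Rik (-0.96). Those of Mir124a-1hg, Trib1 and the Mtnr1a bin rested on 1 contact each. The largest rises were those of Calml4 (0.93), Iba57 (0.90), Iffo1 (0.85), Kptn (0.84), Ctsd, the cathepsin D gene (0.79), and Ippk (0.76), all on 1 contact. Iffo1 and Ippk lost the call without replicate 3 of 24 h (edgeR adjusted p = 0.0902 and 0.119).

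Naive pluripotency genes were well covered and tended lower. Of 40 listed genes, 34 had such contacts, 224 at 0 h and 194 at 24 h. Of 33 tested gene bins, 8 fell and 0 rose (24.2%, against 6.27% of the 8114 symbols tested), with a median log2 change of -0.16 against -0.01. Many of these bins are hubs: among bins with 5 or more contacts at 0 h, 8 of 22 naive genes fell (median -0.17), against 15.6% of 1515 such bins overall (median -0.06). DESeq2 called 2 falls of 27, the fit without TMM called 12, and contacts of 30 kb or more gave 4 of 27. Of the contacts, 85.7% were in the ES H3K27ac list, 26.5% in the ES KLF4 list and 2.94% in the MEF H3K27ac list, against 70.0%, 22.8% and 22.1% over all symbols.

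Spic, an ETS-family factor, fell most: its summed CPM was 82.2, 91.6 and 85.3 at 0 h and 49.9, 48.2 and 55.1 at 24 h, a log2 change of -0.67 ± 0.08 (edgeR adjusted p = 3.40e-14). Its gene bin, chr10:88680001-88690000, holds the promoter printed above. The contacts to both neighbouring bins and to the bin 20 kb away fell by 0.88, 0.62 and 0.61, while the contact at 30 kb had a change of -0.44 (adjusted p = 0.31). No Spic contact was in the MEF list.

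Nanog, the homeodomain factor of naive cells, had 14 contacts at 0 h and 12 at 24 h from its bin at chr6:122700001-122710000, all within 80 kb. All 14 were in the ES H3K27ac list and 1 was in the MEF list. The sum went from 211, 230 and 227 CPM to 157, 182 and 169, a log2 change of -0.26 ± 0.07 (edgeR adjusted p = 0.00373, DESeq2 0.0518). The contacts did not move alike. The one to the bin 60 kb downstream fell from 29.9, 31.2 and 38.3 to 15.2, 19.6 and 18.9 CPM (-0.74, adjusted p = 1.86e-06), and the next bin at 70 kb fell by 0.62 (adjusted p = 0.0234). On the other side of the gene, the neighbouring bin that starts at 122690001 fell from 31.5, 38 and 36.4 to 20.2, 22.9 and 26 (-0.48, adjusted p = 0.00511). The downstream neighbour that starts at 122710001 was at 25, 26.6 and 26.2 and then at 25.2, 26.8 and 22.2 (0.05, adjusted p = 0.906). The contact shared with MEFs, at 30 kb, was 1.78 higher in ES cells on the log2 scale (adjusted p = 9.43e-11).

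Tet2, a methylcytosine dioxygenase, fell from 72.2, 80.6 and 76.5 to 54.7, 55.1 and 52.7 summed CPM (-0.39, edgeR adjusted p = 4.45e-05). Jarid2, a Polycomb cofactor, fell by 0.33 and went from 13 to 7 contacts. Tbx3, Tfcp2l1, Epas1 and Etv5 each fell by 0.29. With DESeq2, these and Jarid2 did not pass (adjusted p 0.0852 to 0.481). Tfcp2l1, whose promoter is printed above, lost its 4 contacts from 70 kb to 450 kb from the list, and its contact at 20 kb fell by 0.51 (adjusted p = 0.00195). Etv5 lost the call without replicate 1 of 24 h (adjusted p = 0.0555), and Epas1 lost it without replicate 2 of 0 h, 1 of 24 h or 3 of 24 h (0.0608 to 0.127).

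Other naive genes did not pass. Klf2 kept 10 contacts, with sums of 165, 191 and 177 CPM and then 161, 188 and 163. Its log2 change was 0.10 ± 0.07 after TMM scaling (edgeR adjusted p = 0.449). Pou5f1, which encodes OCT4, went from 5 to 3 contacts with a change of 0.06 ± 0.08 (adjusted p = 0.754). Klf4 went from 6 to 3 with a change of -0.26 (adjusted p = 0.0887) that passed without TMM, among contacts of 30 kb or more and among contacts with a distal peak at both times (-0.36, -0.57 and -0.56). Sall4 had a change of 0.19 (adjusted p = 0.0512, and 0.0330 without replicate 3 of 24 h). Gbx2 had 1 contact at 0 h, to a bin without a peak, and Esrrb, Sox2, Manba, Lefty1 and Foxd3 had no contact that met the rule.

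Of 28 genes of LIF, WNT, FGF and BMP signalling, 20 had contacts, 113 at 0 h and 93 at 24 h, and of 18 tested bins 8 fell and 1 rose (1 and 0 by DESeq2), against 6.27% of all symbols tested falling. The median log2 change was -0.17. Of the 10 with 5 or more contacts 6 fell, against 15.6% of all such bins. Il6st, the receptor subunit through which LIF signals, fell from 98.9, 102 and 105 to 69.3, 73.5 and 75.2 summed CPM (-0.38, edgeR adjusted p = 6.70e-05). Its contact at 50 kb fell from 24.9, 23.8 and 24.8 to 10.5, 13.0 and 16.0 (-0.79, adjusted p = 3.00e-05) and was 0.91 higher in ES cells than in MEFs (adjusted p = 1.61e-04). Lifr, the partner receptor, was the rise, with a change of 0.25 (adjusted p = 0.0301). It lost the call without TMM (0.369), without replicate 2 of 0 h (0.134) and without replicate 3 of 24 h (0.117).

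Among feedback inhibitors and targets, Spry2, an inhibitor of FGF signalling, fell by 0.58 (edgeR adjusted p = 2.87e-06). Smad7 fell as given above, and Pim1 and Pim3, kinase genes induced by STAT3, fell by 0.31 and 0.24. Pim3 lost the call without replicate 2 of 0 h or 1 of 24 h (adjusted p 0.0853 and 0.115). Id2, a BMP target, fell by 0.36, with adjusted p from 0.0722 to 0.109 without replicate 2 or 3 of 0 h or 1 or 3 of 24 h. Tcf7l2, a WNT-pathway factor, fell by 0.54 (lost without replicate 3 of either time, 0.0805 and 0.214). The bin counted for Fgfr2 fell by 0.27. That bin also carried the symbols Ctbp2 and 4930483O08Rik, so its fall cannot be assigned to Fgfr2. The fall did not pass with DESeq2 (adjusted p = 0.182) or among contacts of 30 kb or more (-0.08, edgeR adjusted p = 0.782). Unlike the naive list, 30% of the signalling contacts were in the MEF list.

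**Figure D4:**
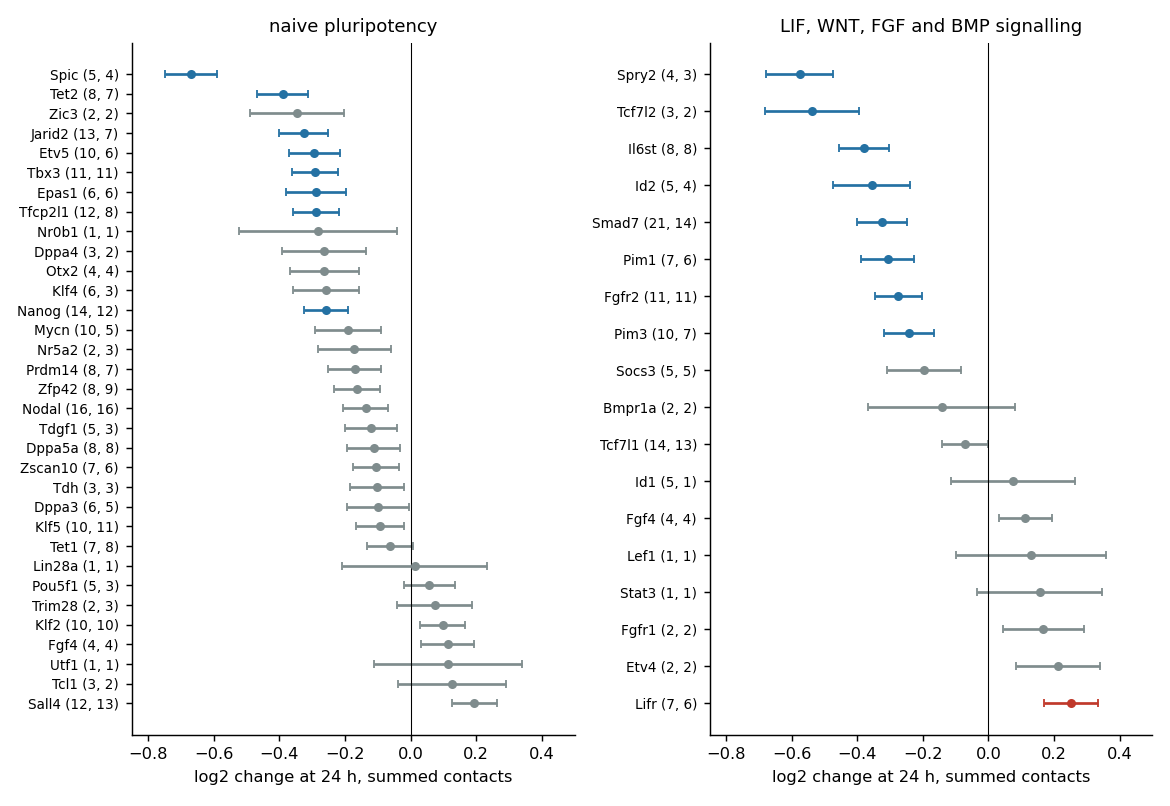
Log2 change from 0 h to 24 h of counts summed per gene bin, from the edgeR fit with TMM scaling (horizontal axis). Bars are approximate standard errors. The tested gene bins of the naive pluripotency list (left) and the signalling list (right) are shown. Numbers of contacts at 0 h and 24 h are in parentheses. Blue points were lower and red points higher at an edgeR adjusted p under 0.05, and grey points did not pass. Of the naive genes 8 are blue and 0 red, and of the signalling genes 8 are blue and 1 red.

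Of 24 chromatin regulators, 22 had contacts, and 5 of 20 tested bins fell, against 6.27% of all symbols tested: Tet2, Jarid2, the Eed bin (-0.26), Mtf2 (-0.24) and Kat6b (-0.23). All 5 were among the 12 with 5 or more contacts, where 15.6% of all bins fell. DESeq2 called 1, contacts of 30 kb or more gave 0 of 15, and leave-outs gave 3 or 4. Eed lost the call without replicate 3 of 0 h or 1 of 24 h (edgeR adjusted p 0.116 and 0.103). Mtf2 lost it without replicate 2 of 0 h or 1 of 24 h (0.0763 and 0.0595), and Kat6b without replicate 3 of either time (0.0594 and 0.115). Of 16 formative and primed genes 10 had contacts, and 0 of 8 tested bins changed. Ribosomal protein symbols, taken by their Rpl and Rps prefix and so including S6 kinase genes, had 2 of 72 bins fall (Rps20 at -0.45 and Rps6ka1 at -0.24), and 0 rise. Cell cycle genes had 1 of 14 fall, Mycl (-0.51), which lost the call without replicate 2 of 0 h or 3 of 24 h (edgeR adjusted p 0.0547 and 0.0724). The 2 tested histone bins did not pass. Tet1, Tet2, Jarid2, Trim28, Fgf4, Mycn and a few other genes stand in more than 1 list.

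Markers of other cell types were few. Of 19 fibroblast markers, 3 had contacts (Fn1, Col1a1 and S100a4) and 2 were tested. The bin of Fn1, the fibronectin gene, fell by 0.52 (edgeR adjusted p = 2.67e-09). That bin also carried the symbol Apol7d, so its fall cannot be assigned to Fn1. Among anchors at least 30 kb apart its change was -0.21 (edgeR adjusted p = 0.718). Of its 6 contacts, 5 were in the ES H3K27ac list and 0 in the MEF H3K27ac list. The other tested bin did not pass, and the median of the 2 was -0.18. Of 9 primitive endoderm markers 2 had contacts and were tested. Lama1 fell by 0.42 (adjusted p = 8.00e-04, DESeq2 0.191) and the other did not pass. Of 9 trophoblast markers 5 had contacts, with 9 at 0 h and 10 at 24 h, and 2 were tested. Tfap2c rose by 0.49 (adjusted p = 0.00758, but 0.05002 without TMM and 0.170 among anchors at least 30 kb apart). Tead4 went from 7 to 4 contacts with a change of -0.22 (adjusted p = 0.173), and it fell without TMM (-0.32, adjusted p = 0.0316). None of 6 markers of 2-cell-like cells had any. The part of other cell types in the changes was not tested.

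The contacts were mainly those of ES cells. Of the 0 h contacts, 73.2% (72.6 to 73.7) were in the ES H3K27ac list and 22.7% (22.2 to 23.3) in the MEF list, and they made up 22.3% and 8.59% of those lists. The MEF and ES H3K27ac lists had the same CPM floor of 3 in every library as the TKO lists, and the KLF4 lists did not. The KLF4 lists held 24.5% in ES cells, 14.5% at day 3 and 2.48% at day 6, where the list is short, or 22.9%, 14.1% and 14.1% of those lists. The larger Hi-C lists held 45.6% in ES cells and 29.5% in MEFs, or 3.29% and 2.98% of them. At least 1 KLF4 list held 7027 contacts (30.6%), all 3 held 359, all 7 other lists held 168 and none of them held 3156 (13.7%).

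The shares fell with distance in most lists. From neighbouring bins to 200 kb or more, the share in the ES H3K27ac list went from 82.0% to 40.3%, in the MEF list from 31.2% to 5.97% and in the ES KLF4 list from 37.0% to 5.78%. The ES Hi-C share was 45.1% at 10 kb, highest at 20 kb with 51.9%, still 47.3% at 50 to 90 kb, and 9.25% at 200 kb or more. Gene-gene contacts were more often shared with the MEF list (29.2%) and pairs with no gene less often (17.0%). In the MEF Hi-C list, pairs with no gene were shared most often (36.5%), followed by gene-gene contacts (31.3%) and gene-to-distal-peak contacts (29.5%). Of the 24 h contacts, 77.3% were in the ES and 25.3% in the MEF H3K27ac list.

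**Figure D5:**
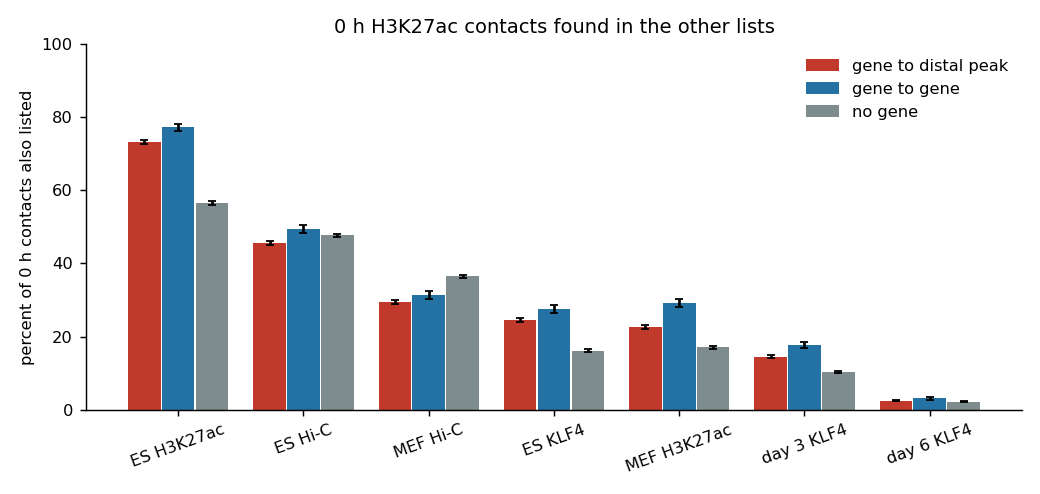
Percent of 0 h contacts (vertical axis) also listed in each of the other 7 lists, for gene-to-distal-peak contacts, gene-gene contacts and pairs with no gene, with 95% Wilson intervals. For gene-to-distal-peak contacts the shares run from 73.2% in the ES H3K27ac list to 2.48% in the day 6 KLF4 list.

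Where MEFs and ES cells shared a contact, it was more often stronger in ES cells. Of 4735 gene-to-distal-peak contacts in both H3K27ac lists, 1329 (28.1%) were higher in ES cells and 441 (9.31%) lower by the edgeR quasi-likelihood test. The share called among all 17901 interactions in both lists was 32.0%, with 17.6% higher and 14.4% lower. The median log2 difference was 0.20, against -0.04 for all. Gene-gene contacts were similar, with 24.1% higher and 7.18% lower (median 0.18), while of the 1648 interactions in neither TKO list 7 were higher and 464 lower. The gene-to-distal-peak contacts were chosen by their listing in TKO cells, which are V6.5 ES cells, so the tilt toward ES cells is partly fixed by that choice. Without TMM, 1935 were higher and 242 lower and the median of all interactions was 0.21. DESeq2 called 710 and 164. Without replicate 2 of MEF, which left 1 MEF sample, the median of the gene-to-distal-peak contacts was 0.24. Of the contacts also in the ES KLF4 list 38.8% were higher in ES cells, against 17.1% of the others. Of the 453 contacts that fell in TKO cells at 24 h, 110 were in the MEF list and tested here. Of these, 70 (63.6%) were higher in ES cells and 7 lower (median 0.91), against 29.3% of the 4242 not called in TKO cells. These 110 were also stronger contacts, with a median CPM of 12.6 against 7.40, and the part of strength was not tested.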

How the data were processed

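Contacts between 10 kb bins were taken from the authors' deposited lists of HiChIP and Hi-C interactions. Per the file headers, each list gives raw counts per library, CPM, a distance-normalised ratio, a p-value with its FDR (q-value), and the gene symbols and ChIP peaks at both bins. The deposited counts over the authors' CPM give 1 constant per chromosome, so CPM is scaled to the contacts of that chromosome and is not comparable between chromosomes. The Hi-C values named cpm in the file headers are not scaled to such a total and were taken as a deposited signal. The authors' fold or ratio columns and their domain score were not used in a result. The submitters' processing notes name Bowtie2 2.2.3 and mm10; the contact caller, and how genes and peaks were assigned to bins, are not given in the sources used here.

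Distances were taken between bin starts. Deposited counts were tested with edgeR 4.0.16 (quasi-likelihood, TMM, Benjamini-Hochberg over all 67728 or 17901 interactions in both lists of a comparison, or over 6620 gene bins), in R 4.3.3. Standard errors of edgeR changes are approximate, taken as the absolute log2 change over the square root of the test's F statistic. TKO libraries whose counts differed by no more than sampling noise (chi-square p of 0.01 or more) were added and counted as 1 sample: replicates 2 and 3 of 0 h, and 1 and 3 of 24 h. DESeq2 1.42.0, no TMM, count filters, a 30 kb distance minimum, separate libraries, other list overlaps and leaving out each library were alternatives. Leaving out replicate 1 of 0 h or 2 of 24 h left 1 sample at that time, and leaving out any MEF or ES library left 1 sample in its group. Same-numbered libraries did not deviate together (r = 0.0170, 0.0111 and -0.00873). On simulated data with 200 contacts changed 2-fold, 70% were recovered with 3 false calls among 67728 interactions, and 68% with 9 among 17901. The simulation gave all interactions 1 dispersion and changed equal numbers up and down. It therefore does not give recovery or error rates for the smaller and mostly downward changes called here.

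Only interactions listed in both lists could be tested, so contacts that vanish or appear enter as listed or not listed. Shares have 95% Wilson intervals (Python 3.11.15, scipy 1.17.1). The genes named were the 10 contacts with the largest called falls and rises without overlap of libraries, the gene bins with the most contacts and the largest gains and losses, the largest changes of sums, members of the gene lists, the strongest contacts of 50 kb or more and the distal bins with most partners. These rules, the contacts and the gene lists were chosen with earlier results of these data known. Sequences and starts are RefSeq's for GRCm38.p6, the assembly mm10 names.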

Additional observations from a re-analysis of the deposited data

Results flagged for a closer look

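The contact of A230028O05Rik to the peak bin 20 kb away had 1 library far from the other 3 in the ES KLF4 list, with 3.56 CPM against 7.86, 7.89 and 8.12. It was 1 of 15 groups of 4 libraries examined in this way, and chance sets apart about 1 group in 20.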

How the results depend on the processing

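The 453 falls and 86 rises among contacts became 887 and 35 without TMM, 52 and 0 with DESeq2, 120 and 15 among anchors at least 30 kb apart, and 261 to 327 and 37 to 68 without 1 library. The 431 and 142 gene bins became 782 and 37 without TMM, 59 and 4 with DESeq2, 122 and 15 among anchors at least 30 kb apart, and 290 to 365 and 84 to 117 without 1 library. Between ES cells and MEFs, 1329 higher and 441 lower became 710 and 164 with DESeq2, 381 and 163 among anchors at least 30 kb apart, 242 lower without TMM, and 936 to 1162 higher and 213 to 388 lower without 1 library. Fewer contacts are tested at 30 kb or more; the other causes were not tested. With all TKO libraries kept separate, contacts gave 496 and 96 and gene bins 468 and 161, and the replicate block on top of that gave 531 and 100, and 450 and 133. The block alone gave 1361 and 453 for ES against MEF. The numbers did not pair the libraries. Filters on low counts kept each of these counts within 1.5 times, and so did bins with 1 symbol and peaks at both times for the TKO counts, the comparison they were run on.

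Shares of the 0 h contacts moved with how a match was defined. Allowing each anchor to lie 1 bin away gave 46.5% in the MEF H3K27ac list, 88.6% in ES H3K27ac, 34.8% in day 3 KLF4, 9.93% in day 6 KLF4, 54.2% in ES KLF4, 66.0% in MEF Hi-C, 82.5% in ES Hi-C and 92.3% at 24 h. Lists reduced to equal length by strength gave 29.2%, 80.9%, 27.3%, 11.5%, 49.2%, 17.4%, 22.8% and 81.5% in the same order. Anchors at least 30 kb apart gave 16.0%, 67.1%, 11.1%, 1.25%, 15.6%, 25.8%, 43.4% and 66.5%. The mean number of contacts per gene bin was 2.40 at 0 h and 2.25 at 24 h with 1 count threshold for all chromosomes, 2.00 and 1.86 at a deposited FDR under 0.1 (2655 and 1766 contacts), and 2.38 and 2.19 at 30 kb or more. The median distance at 0 h was 20 kb with 1 threshold, at that FDR and when weighted by counts; at 24 h it was 20 kb in each.

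Contacts of 50 kb or more took a mean of 18.4% of counts at 0 h and 15.5% at 24 h over each time's own list, and 14.3% and 14.1% over the contacts in both lists. Of 22 named contacts with a call, 10 lost it without some library, and of 41 named gene bins 13 did; 20 gene bins lost it with DESeq2. The sum of Msh6 changed sign, to 0.020, among anchors at least 30 kb apart. Depth sets the floor: the listing threshold stood for 6 to 9 counts on the X chromosome.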
